A study of Homo sapiens with 4 samples.

Results

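The transcripts of 8 genes of the urea cycle and of amino acid catabolism, CPS1, ASS1, ASL, ARG1, TAT, HPD, FAH and GLUL, were followed in HepG2 cells after inhibition or loss of CDK4 and CDK6. The genes were taken by symbol from the read counts, in which all 8 were listed among 24462 genes. HepG2 is a human liver cancer cell line. The cells were given PD0332991, a kinase inhibitor of CDK4/6, or its solvent DMSO, or siRNA was transfected, either scrambled or aimed at CDK4 together with CDK6 (CDK4/6 KD). Each condition was sequenced as 1 library. The dose of PD0332991 and the times of sampling are not given in the sources used here.

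The urea cycle turns ammonia into urea in hepatocytes. CPS1 makes carbamoyl phosphate in the mitochondrion, OTC joins it to ornithine to give citrulline, ASS1 and ASL build and split argininosuccinate in the cytosol, and ARG1 releases urea from arginine. GLUL binds ammonia into glutamine, in the liver mainly in the cells around the central vein, where it is a target of Wnt/beta-catenin signalling. Tyrosine is broken down by TAT, HPD, HGD, GSTZ1 and FAH in that order, to fumarate and acetoacetate.

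Total counts ran from 8983848 to 11176880 reads per library, and 12780 to 13257 genes had at least 10 reads. The targeted transcripts were low in the CDK4/6 KD library, where the level of CDK4 was 0.203 times (95% interval 0.188 to 0.219) and that of CDK6 0.242 times (0.228 to 0.256) that of scrambled siRNA. Levels are given as CPM, read counts relative to library size, after TMM scaling. This scaling corrects library sizes for a few dominant genes. A fold change is the ratio of scaled counts after 0.5 reads were added to each, and 95% intervals are exact Clopper-Pearson intervals on how a gene's reads divide between the libraries compared. With 1 library per condition no difference could be set against the spread of replicates, and p-values are not given. Intervals cover counting error only, take no account of PCR copies, and compare the libraries and not the conditions. In such bulk RNA, fewer cells of a type and less RNA per cell cannot be told apart.

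All 12 hepatocyte markers had at least 10 reads in every library, and their summed level was 22400 CPM in DMSO, 26800 after PD0332991, 25700 in scrambled siRNA and 29700 in CDK4/6 KD. By contrast ARG1, OTC and the tryptophan dioxygenase TDO2, enzymes of mature hepatocytes, were at or near 0 in every library. Of 12 keratinocyte markers, 3 in DMSO and 7 or 8 in the other libraries had at least 10 reads, 0 to 2 per library were at 0 (among KRT1, TP63, DSG3 and COL17A1), and their summed level was 204 CPM in DMSO, 218 after PD0332991, 364 in scrambled siRNA and 207 in CDK4/6 KD. Most of these reads were of SFN (1221, 563, 3266 and 1152 reads in that order) and KRT10, while KRT5 had 2, 113, 13 and 43 reads. In PD0332991 to DMSO 8 keratinocyte markers had at least 10 reads in either library. Of these, 5 were at least 2-fold higher and 1 lower (7.63% and 6.96% of all genes). Their median log2 fold change was 3.49, beside 0.0322 for all genes. In scrambled siRNA to DMSO 5 of 8 were higher and 0 lower (5.31% and 6.62%). In CDK4/6 KD to scrambled siRNA 3 of 8 were higher and 1 lower (9.21% and 7.59%). The 12 stromal, endothelial and immune markers summed to 57.0, 92.2, 21.7 and 29.8 CPM in DMSO, PD0332991, scrambled siRNA and CDK4/6 KD. Per library 3 to 6 of them were at 0. COL1A1 had 332, 468, 73 and 207 reads, and CDH5 and CD3E were at 0 throughout. The summed level of 10 proliferation markers was 4380 CPM in DMSO, 592 after PD0332991, 3140 in scrambled siRNA and 1370 in CDK4/6 KD. The part of these differences in the results that follow was not tested.

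ASS1, argininosuccinate synthetase, differed most between libraries among the urea cycle genes. It lies on chromosome 9 (GRCh38, 130444929 to 130501274, plus strand). Its level was 26.5 CPM (243 reads) in DMSO, 48.6 CPM (439 reads) after PD0332991, 16.8 CPM (180 reads) in scrambled siRNA and 55.3 CPM (627 reads) in CDK4/6 KD. Both treated libraries were thus above both control libraries, and the intervals of the levels did not overlap between treated and control libraries. In CDK4/6 KD the level was 3.29-fold (2.79 to 3.91) that of scrambled siRNA, and 3.32% of all genes tested had as high a fold change or higher. After PD0332991 it was 1.83-fold (1.56 to 2.15) that of DMSO, a value which 9.77% of genes reached. The control libraries themselves differed, since ASS1 in scrambled siRNA was 0.633 times (0.519 to 0.77) the level in DMSO. The choice of control therefore moved the size of the difference but not its direction. Set against DMSO the CDK4/6 KD library was 2.08-fold (1.8 to 2.43) higher, and set against scrambled siRNA the PD0332991 library was 2.89-fold (2.43 to 3.46) higher. Among all genes of each library ASS1 ranked 6258 in DMSO, 4082 after PD0332991, 7579 in scrambled siRNA and 3662 in CDK4/6 KD. The annotation holds 11 processed pseudogenes of ASS1, of which 0 are listed in the counts, and how reads matching both were counted is not stated, so that the count of ASS1 carries that uncertainty.

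**Figure D1:**
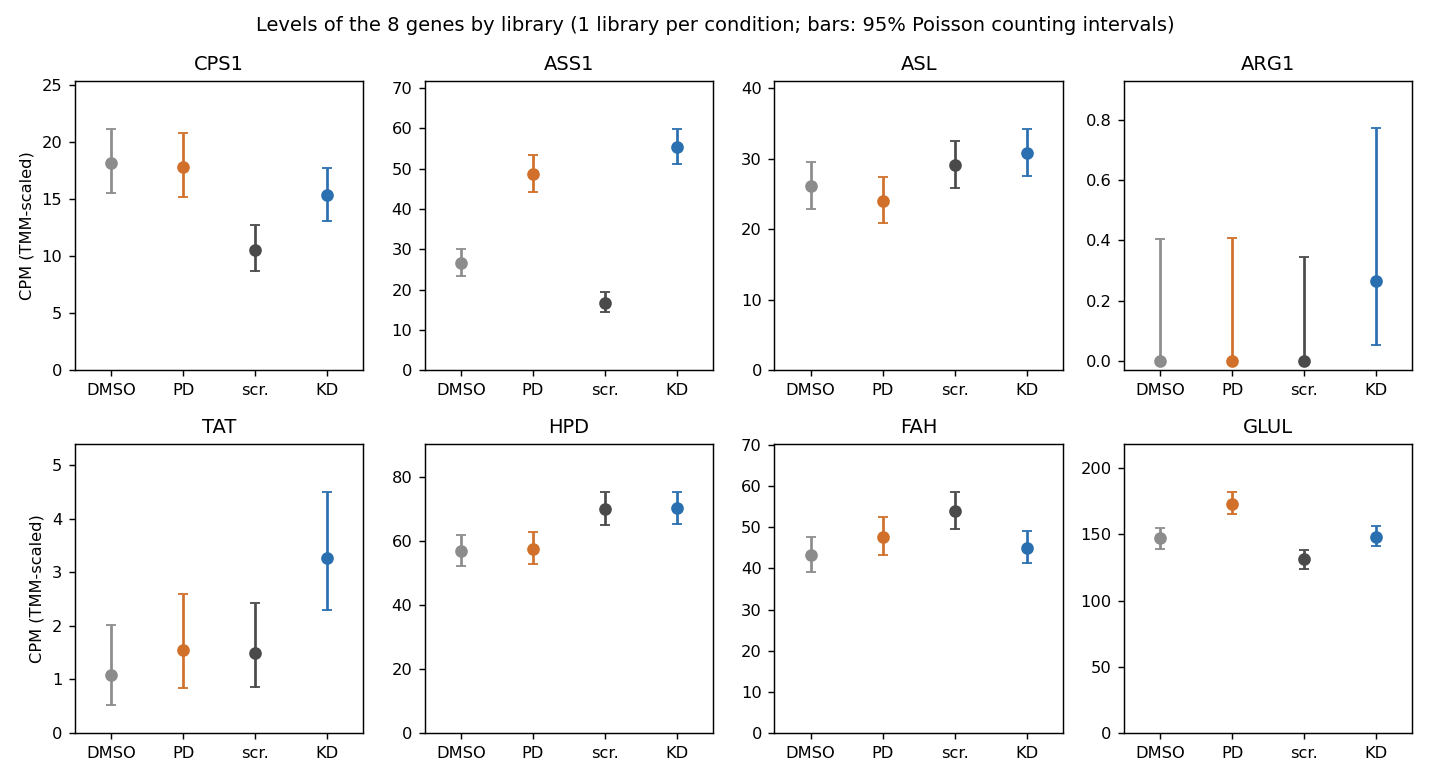
Level of each of the 8 genes in the 4 libraries (DMSO, PD0332991, scrambled siRNA and CDK4/6 KD), in TMM-scaled CPM on an axis of its own per gene. Points are single libraries and bars are 95% Poisson counting intervals. ASS1 stood at 48.6 and 55.3 CPM in the treated libraries against 26.5 and 16.8 CPM in the controls, ARG1 had reads in 1 library only, and GLUL lay between 131 and 173 CPM.

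The promoter of ASS1 is shown because ASS1 was the urea cycle gene that differed in both treated libraries. The RefSeq table gives 13 promoter windows for 7 of the 8 genes, and TAT had no entry. The stretch is on the plus strand of GRCh38.p14, and ends 32 bases short of the second of the start sites listed there, at 130444961. The first listed start site, at 130444707, lies before the stretch, which is therefore downstream of that site. Capitals mark the GC box GGGCGG on either strand (CCGCCC on the plus strand) and the E-box CACGTG, which reads the same on both strands.
ASS1 promoter, chr9:130444711-130444928: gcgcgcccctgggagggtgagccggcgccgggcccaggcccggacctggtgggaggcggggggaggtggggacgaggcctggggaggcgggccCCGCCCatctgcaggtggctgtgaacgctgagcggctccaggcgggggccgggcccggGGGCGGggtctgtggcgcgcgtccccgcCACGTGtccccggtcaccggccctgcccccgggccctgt
The GC boxes start at -157 and -99 and the E-box at -71 relative to that start site, with no overlap between them, and 81.7% of the 218 bases are G or C. Among 35116 promoter windows of 250 bases before a start site, 42.6% held GGGCGG and 6.34% held CACGTG, and the median share of G or C was 58.0%. The windows of ASL, HPD, FAH and GLUL had 64.8% to 77.2% G or C, and each held GGGCGG. Those of CPS1 and ARG1 had 33.6% to 48.4% and no GGGCGG. The E-box was searched after the values of ASS1 had been seen. It also occurred in 1 of the 3 windows of CPS1 and in 1 of the 2 windows of HPD. Whether the motif bears on the counts was not tested. TATAAA (held by 10.7% of all windows), CCAAT (32.0%), TTGCGCAA (0.131%), AAAGTCC (3.2%), CTTTGAT (2.26%), CTTTGTT (4.5%), TGTTCT (12.4%), TTTGGCGC (0.55%), TTTCGCGC (0.439%) and TTTGAA (13.3%), searched on both strands, had no match in the ASS1 windows. These matches describe letters only.

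CPS1, the mitochondrial entry enzyme of the cycle (chromosome 2, 210477682 to 210679107, plus strand), stood apart in the scrambled siRNA library. It had 18.1 CPM (166 reads) in DMSO, 17.8 CPM (161 reads) after PD0332991, 10.5 CPM (113 reads) in scrambled siRNA and 15.3 CPM (173 reads) in CDK4/6 KD. The scrambled siRNA library was low and the intervals of the other libraries overlapped each other. Relative to scrambled siRNA, CDK4/6 KD was 1.45-fold (1.14 to 1.85) higher. Relative to DMSO it was 0.843 times (0.677 to 1.05), so that the direction rested on which control library was used. After PD0332991 CPS1 was 0.983 times (0.786 to 1.23) the level in DMSO, and scrambled siRNA was 0.583 times (0.454 to 0.743) DMSO.

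ASL, which splits argininosuccinate into arginine and fumarate (chromosome 7, 66075798 to 66093558, plus strand), varied least of the urea cycle genes with reads throughout. The levels were 26.1 CPM (239 reads) in DMSO, 24.0 CPM (217 reads) after PD0332991, 29.1 CPM (312 reads) in scrambled siRNA and 30.8 CPM (349 reads) in CDK4/6 KD. With the libraries ranked by level, no step from 1 to the next was beyond counting error, while the highest was 1.28-fold (1.08 to 1.53) the lowest. The fold change was 1.06 (0.906 to 1.24) in CDK4/6 KD to scrambled siRNA and 0.92 (0.762 to 1.11) in PD0332991 to DMSO.

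ARG1, the liver arginase (chromosome 6, 131573144 to 131584332, plus strand), had 0 reads in DMSO, PD0332991 and scrambled siRNA and 3 reads in CDK4/6 KD. As the floor a count of 0 was taken to allow up to 3 reads, which is 0.327 CPM in DMSO, 0.332 CPM after PD0332991 and 0.28 CPM in scrambled siRNA, while the two-sided Poisson limits drawn in the plot of levels reach 0.403, 0.408 and 0.344 CPM. No fold change was taken, and a difference was not detectable at this depth. The gene overlaps MED23 on the opposite strand. ARG2, the mitochondrial arginase, was read throughout, with 74.7 CPM in DMSO, 70.1 CPM after PD0332991, 73.1 CPM in scrambled siRNA and 70.7 CPM in CDK4/6 KD, and its fold change was 0.968 (0.876 to 1.07) in CDK4/6 KD to scrambled siRNA. OTC, the enzyme between CPS1 and ASS1, had 7 reads in scrambled siRNA and 0 in the other libraries. Of the arginases it was therefore ARG2 whose transcript these cells held at a measurable level.

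GLUL, glutamine synthetase (chromosome 1, 182381704 to 182392206, minus strand), was the most counted of the 8 genes in every library. It had 147 CPM (1348 reads) in DMSO, 173 CPM (1568 reads) after PD0332991, 131 CPM (1401 reads) in scrambled siRNA and 148 CPM (1682 reads) in CDK4/6 KD. PD0332991 was highest and scrambled siRNA lowest, while DMSO and CDK4/6 KD did not differ beyond counting error (1.01, 0.938 to 1.08). The fold change was 1.18 (1.1 to 1.27) in PD0332991 to DMSO and 1.14 (1.06 to 1.22) in CDK4/6 KD to scrambled siRNA, and scrambled siRNA was 0.888 times (0.823 to 0.958) DMSO. These steps were past counting error but small beside those of ASS1. GLUL has 4 processed pseudogenes in the annotation, of which 0 are listed in the counts.

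Ratios of genes within a library need no scaling between libraries. The first strand was primed at the poly(A) tail, and counts were therefore not divided by transcript length. ASS1 had 0.18 reads per read of GLUL (0.157 to 0.207) in DMSO, 0.28 (0.251 to 0.311) after PD0332991, 0.128 (0.109 to 0.15) in scrambled siRNA and 0.373 (0.34 to 0.409) in CDK4/6 KD. Per read of ASL, ASS1 had 1.02 (0.847 to 1.22), 2.02 (1.72 to 2.39), 0.577 (0.478 to 0.695) and 1.8 (1.57 to 2.05) reads in the same order of libraries. The ratio of reads between the transcripts of these consecutive enzymes thus differed between each treated library and both controls, whichever control was used. ASL per GLUL ran from 0.138 after PD0332991 to 0.223 in scrambled siRNA, and CPS1 per GLUL from 0.0807 in scrambled siRNA to 0.123 in DMSO. The share of ASS1 in the reads of the 8 genes was 8.32% in DMSO, 13.1% after PD0332991, 5.37% in scrambled siRNA and 15.0% in CDK4/6 KD, while that of GLUL ran from 40.3% to 46.8%.

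**Figure D2:**
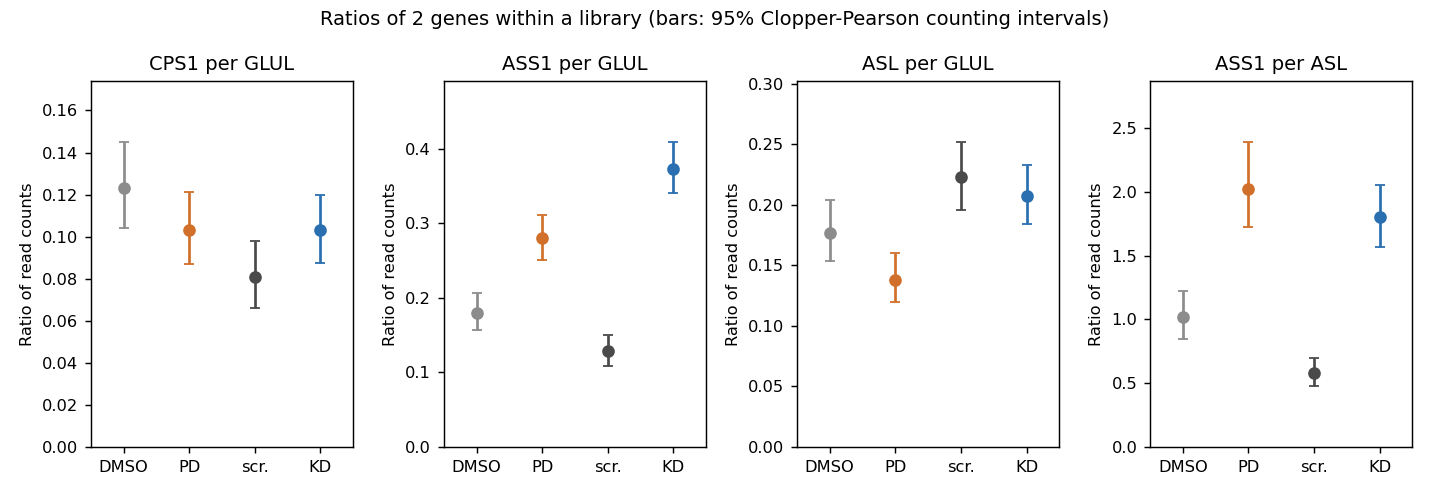
Ratio of the read counts of 2 genes within each library, with 95% Clopper-Pearson counting intervals as bars and 1 point per library. ASS1 per GLUL and ASS1 per ASL were higher in PD0332991 and CDK4/6 KD than in DMSO and scrambled siRNA, with intervals that did not overlap between treated and control libraries, and CPS1 per GLUL and ASL per GLUL did not separate them in this way.

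In tyrosine breakdown TAT, the aminotransferase of the first step (chromosome 16, 71565660 to 71577130, minus strand), was rare. It had 10 reads (1.09 CPM) in DMSO, 14 reads (1.55 CPM) after PD0332991, 16 reads (1.49 CPM) in scrambled siRNA and 37 reads (3.26 CPM) in CDK4/6 KD. The CDK4/6 KD library was above the others, whose intervals overlapped. Its level was 2.15-fold (1.19 to 4.21) that of scrambled siRNA, which fell short of 2-fold under quantile normalization (1.9) and with 5 reads added to each count (1.89). PD0332991 to DMSO gave 1.4 (0.586 to 3.57), which at these counts does not tell a rise from a fall. TAT overlaps TAT-AS1 on the opposite strand, which had 15, 9, 13 and 21 reads in the same order of libraries, and since the counting is not stated to use strand, reads of the overlapping genes cannot be told apart.

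HPD, the dioxygenase after TAT (chromosome 12, 121839527 to 121863596, minus strand), differed between the siRNA arm and the solvent arm. It had 56.7 CPM (520 reads) in DMSO, 57.6 CPM (521 reads) after PD0332991, 70.0 CPM (751 reads) in scrambled siRNA and 70.2 CPM (796 reads) in CDK4/6 KD. Within each arm the levels lay close, with fold changes of 1.02 (0.898 to 1.15) for PD0332991 and 1.0 (0.907 to 1.11) for CDK4/6 KD, and scrambled siRNA was 1.23-fold (1.1 to 1.38) DMSO.

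FAH, which ends the pathway (chromosome 15, 80152490 to 80186946, plus strand), had 43.2 CPM (396 reads) in DMSO, 47.7 CPM (431 reads) after PD0332991, 54.0 CPM (579 reads) in scrambled siRNA and 45.0 CPM (510 reads) in CDK4/6 KD. With the libraries ranked by level, no step between neighbours was beyond counting error, while the highest was 1.25-fold (1.1 to 1.42) the lowest. CDK4/6 KD was 0.834 times (0.738 to 0.94) scrambled siRNA but 1.04 times (0.911 to 1.19) DMSO, so that its direction too depended on the control, and PD0332991 to DMSO gave 1.1 (0.96 to 1.27). Per read of HPD, FAH had 0.641 reads (0.572 to 0.717) in CDK4/6 KD and 0.762 to 0.827 in the other libraries, and TAT had 0.0465 (0.0325 to 0.0646) in CDK4/6 KD and 0.0192 to 0.0269 in the others. For FAH the CDK4/6 KD interval overlapped those of DMSO (0.667 to 0.87) and scrambled siRNA (0.691 to 0.86), but not that of PD0332991 (0.726 to 0.942). For TAT it overlapped those of DMSO (0.00917 to 0.0357), PD0332991 (0.0146 to 0.0455) and scrambled siRNA (0.0121 to 0.0348).

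**Figure D3:**
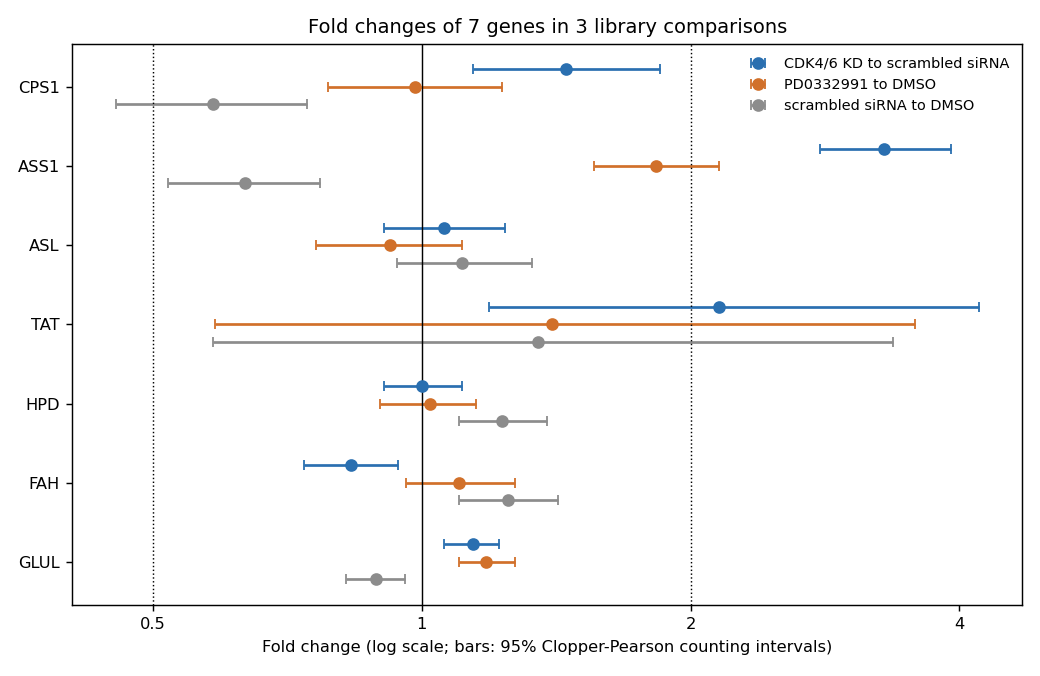
Fold changes on a log axis of the 7 genes with at least 10 reads in a library of each comparison, with 95% Clopper-Pearson counting intervals as bars. Dotted lines stand at 2-fold higher and lower. ASS1 and TAT passed 2-fold in CDK4/6 KD to scrambled siRNA, none did in PD0332991 to DMSO, and CPS1, ASS1 and GLUL lay below 1 in scrambled siRNA to DMSO.

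Over the 8 genes, 7 had at least 10 reads in either library and ARG1 did not. In CDK4/6 KD to scrambled siRNA 2 of the 7, ASS1 and TAT, were at least 2-fold higher, where 9.21% of 13617 genes were, and 0 were at least 2-fold lower, where 7.59% were. The interval lay above 1 for 4 genes, CPS1, ASS1, TAT and GLUL (30.1% of all genes), and below 1 for FAH (31.8%). On the log2 scale the median fold change of the 7 genes was 0.184, beside -0.00219 for all genes. In PD0332991 to DMSO 0 of the 7 were at least 2-fold higher (7.63% of 13443 genes) or lower (6.96%), the interval lay above 1 for ASS1 and GLUL (29.2%) and below 1 for 0 genes (27.6%), and the median was 0.141 beside 0.0322. Between the control libraries 0 of the 7 passed 2-fold higher (5.31% of 13303 genes) or lower (6.62%), while the interval lay above 1 for HPD and FAH (28.4%) and below 1 for CPS1, ASS1 and GLUL (27.9%). CPS1, HPD, FAH and ASL had larger fold changes between the controls than within either arm. In size these overlapped within counting error, with CPS1 as the exception in the solvent arm. Its value between the controls (0.583, 0.454 to 0.743) did not overlap that of PD0332991 to DMSO (0.983, 0.786 to 1.23). With the controls exchanged, 2 of the 7 were at least 2-fold higher in CDK4/6 KD to DMSO (8.05% of all genes) and 0 lower (8.11%), and the interval lay above 1 for ASS1, TAT and HPD (29.0%) and below 1 for 0 genes (30.4%). In PD0332991 to scrambled siRNA ASS1 was at least 2-fold higher (10.9%) and 0 genes lower (8.01%), and the interval lay above 1 for CPS1, ASS1 and GLUL (31.2%) and below 1 for ASL and HPD (31.6%). The comparisons share these control libraries. ASS1 was the gene of the 8 with intervals above 1 in both treated libraries against either control, at 1.83-fold (1.56 to 2.15) or more. DMSO and scrambled siRNA differed in ASS1 by 1.58-fold (1.3 to 1.93), an interval that overlaps the former.

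The genes whose profile over the 4 libraries lay nearest to that of a member were found among 9793 genes with at least 50 reads in every library, as the distance of log2 CPM centred on each gene's mean. For ASS1 these were C2orf54 (distance 0.232) and TMTC4 (0.234), where the median distance of all genes was 1.48. C2orf54 had 12.4 CPM in DMSO, 19.2 CPM after PD0332991, 6.9 CPM in scrambled siRNA and 26.4 CPM in CDK4/6 KD. TAT and ARG1 had too few reads to enter. Of the other members CPS1 lay nearest to ASS1 (1.08) and FAH farthest from it (1.54). CPS1 was nearest to ZFHX3 (0.0393) and EPHA1 (0.0483), ASL to DERL1 (0.0259) and UQCR10 (0.0272), HPD to UBE2F (0.0305) and RSPRY1 (0.0471), FAH to RAP1GDS1 (0.0186) and IDE (0.0289), and GLUL to TBC1D8 (0.0284). Among members the closest profiles were those of ASL and HPD (0.12). With 4 points a small distance is easily found among so many genes.

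The other genes of these pathways were read from 6 lists with 93 genes, of which 83 had enough reads. In CDK4/6 KD to scrambled siRNA 12 of the 83 (14.5%) were at least 2-fold higher and 1 (1.2%) lower, beside 9.21% and 7.59% of all genes, with a median log2 fold change of 0.306. In PD0332991 to DMSO 11 (13.3%) were higher and 2 (2.41%) lower, beside 7.63% and 6.96%, with a median of 0.174. Between the controls 1 was higher and 8 were lower in scrambled siRNA (5.31% and 6.62% of all genes), with a median of -0.0572. With the controls exchanged, 5 of the 83 were at least 2-fold higher and 3 lower in CDK4/6 KD to DMSO (8.05% and 8.11% of all genes), and 14 were higher and 3 lower in PD0332991 to scrambled siRNA (10.9% and 8.01%). The counts thus depended on the control, and with 1 library each it cannot be told apart which control was unusual. The same shares of all genes apply to the counts of each list that follow.

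Of 18 urea cycle and ammonia genes with enough reads, 3 were higher in CDK4/6 KD to scrambled siRNA and 1 after PD0332991. ASNS, which makes asparagine and, like ASS1, uses aspartate, had 578 reads in DMSO, 3003 after PD0332991, 1275 in scrambled siRNA and 4308 in CDK4/6 KD. Its fold change was 5.26 (4.82 to 5.77) after PD0332991 and 3.2 (3.0 to 3.41) in CDK4/6 KD, and with the controls exchanged 2.79 (2.62 to 2.99) and 6.02 (5.52 to 6.58). OAT, which links ornithine to proline and glutamate, had 355, 256, 175 and 429 reads in the same order, that is 2.32-fold (1.94 to 2.78) in CDK4/6 KD to scrambled siRNA, 0.977 to DMSO, and 0.731 (0.62 to 0.861) after PD0332991 or 1.73 (1.43 to 2.12) against scrambled siRNA. The alanine aminotransferase GPT was 3.06-fold (1.41 to 8.13) higher in CDK4/6 KD on 27 against 8 reads, and 1.66-fold (0.837 to 3.54) to DMSO. The ammonia transporter RHBG was 1.84-fold (1.69 to 2.0) in CDK4/6 KD and 1.88-fold (1.73 to 2.04) after PD0332991, short of 2-fold in each. With the controls exchanged RHBG was 1.56-fold (1.43 to 1.69) in CDK4/6 KD and 2.22-fold (2.04 to 2.41) after PD0332991, the latter past 2-fold. NAGS, which makes the activator of CPS1, had a fold change of 1.14 (0.827 to 1.58) in CDK4/6 KD and 0.992 (0.643 to 1.53) after PD0332991.

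Of 8 partners of phenylalanine and tyrosine breakdown, 1 was at least 2-fold higher in CDK4/6 KD to scrambled siRNA, and 1 was higher and 1 lower after PD0332991. HGD, the step after HPD, was 1.75-fold (1.63 to 1.89) in CDK4/6 KD and 1.42-fold (1.32 to 1.53) after PD0332991. GSTZ1, the step before FAH, was 2.27-fold (1.95 to 2.65) higher after PD0332991 and 0.549 times (0.472 to 0.637) in CDK4/6 KD, but with the controls exchanged the values were 1.34 (1.19 to 1.52) and 0.93 (0.781 to 1.11). GCH1, which starts the synthesis of tetrahydrobiopterin, was 0.401 times (0.292 to 0.54) after PD0332991, on 61 against 155 reads, and 0.691 times (0.494 to 0.954) against scrambled siRNA. HGD, unlike GSTZ1, had intervals above 1 in both treated libraries against either control.

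Of 10 genes of methionine and cysteine metabolism with enough reads, CTH, which releases cysteine from cystathionine, was 2.97-fold (2.39 to 3.74) higher in CDK4/6 KD and 2.85-fold (2.19 to 3.75) after PD0332991. CBS, the step before, was 1.93-fold (1.78 to 2.1) and 2.01-fold (1.83 to 2.22), or 2.09-fold and 1.86-fold with the controls exchanged. BHMT, which remethylates homocysteine, was 0.354 times (0.162 to 0.684) and 0.249 times (0.0954 to 0.525), on 8 to 34 reads per library. These genes had the same direction in each arm. CDO1, which oxidizes cysteine, did not, since its 15.9-fold (5.17 to 169) value in CDK4/6 KD rested on 2 reads in scrambled siRNA beside 37 in DMSO, and to DMSO it was 0.919.

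Of 12 genes of histidine, proline, serine and glycine breakdown with enough reads, 4 were at least 2-fold higher in CDK4/6 KD and 3 after PD0332991. SDSL, a serine dehydratase-like enzyme, was 4.01-fold (2.64 to 6.51) in CDK4/6 KD and 3.85-fold (2.4 to 6.65) after PD0332991. AGXT, the peroxisomal alanine-glyoxylate aminotransferase, was 2.08-fold (1.71 to 2.54) in CDK4/6 KD, and DAO 5.3-fold (2.37 to 16.5) on 36 against 6 reads. To DMSO AGXT was 1.79-fold (1.47 to 2.18) and DAO 1.69-fold (0.937 to 3.25). PRODH2 was 2.44-fold (1.97 to 3.06) after PD0332991. Of 24 branched-chain genes, BCAT2 was 2.12-fold (1.54 to 2.98) and BCAT1 2.05-fold (1.89 to 2.22) higher after PD0332991, which became 1.8-fold and 1.54-fold against scrambled siRNA. AUH was 2.28-fold (1.71 to 3.1) in CDK4/6 KD and 0.533 times (0.387 to 0.723) after PD0332991, but 1.04 (0.82 to 1.33) and 1.17 (0.817 to 1.67) with the controls exchanged. None of 11 tryptophan and lysine genes passed 2-fold in either comparison, with a median of 0.509 on the log2 scale in CDK4/6 KD to scrambled siRNA and of 0.0111 after PD0332991.

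**Figure D4:**
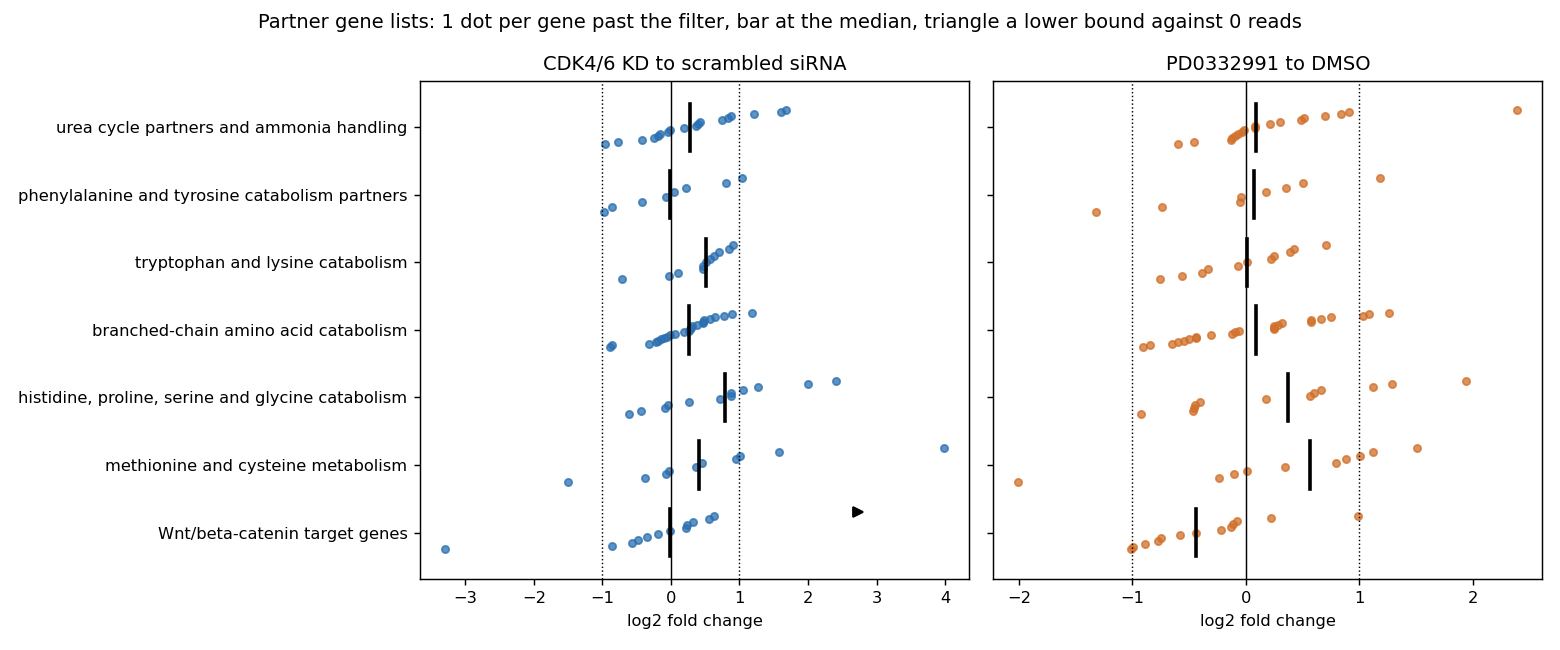
log2 fold changes of the partner genes by list, 1 dot per gene with at least 10 reads in either library, in CDK4/6 KD to scrambled siRNA and in PD0332991 to DMSO, with a bar at each list's median. Dotted lines stand at 2-fold, and the triangle is the lower bound for CYP2E1 (at least 6.62-fold higher), which had 0 reads in scrambled siRNA. The dot farthest to the right at left is CDO1, and that at right is ASNS.

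Because GLUL is a target of Wnt/beta-catenin in liver, 14 other targets of that pathway were read beside it. Their median log2 fold change over 13 with enough reads was -0.438 in PD0332991 to DMSO, where GLUL was 1.18-fold higher, and -0.0191 in CDK4/6 KD to scrambled siRNA, also with CYP2E1 at its bound. Between the controls it was -0.64, and with the controls exchanged the medians were 0.00241 for PD0332991 and -0.553 for CDK4/6 KD, so that each rested on the control library. AXIN2, the feedback inhibitor of the pathway, was 0.501 times (0.439 to 0.569) and SP5 0.495 times (0.469 to 0.522) after PD0332991, while SP5 was 1.47-fold (1.4 to 1.55) higher in CDK4/6 KD. With the controls exchanged AXIN2 was 0.515 times and SP5 1.0 (0.943 to 1.06) after PD0332991, and SP5 was 0.728 times (0.696 to 0.761) in CDK4/6 KD. AXIN2 in CDK4/6 KD was 0.715 times (0.642 to 0.795) scrambled siRNA and 0.695 times (0.622 to 0.775) DMSO. Unlike SP5, it was thus below 1 in both treated libraries against either control. LEF1 was 0.102 times (0.0016 to 0.444) in CDK4/6 KD on 1 against 14 reads, and CYP2E1, a pericentral cytochrome, had 21 reads in CDK4/6 KD and 0 in scrambled siRNA, at least 6.62-fold higher against a floor of 3 reads in that library, which leaves out the counting error of the 21 reads. The exact interval of the split starts at 4.93. Set against DMSO, which had 4 reads, CYP2E1 in CDK4/6 KD was 3.91-fold (1.43 to 17.0). In PD0332991 to DMSO 8 of the 13 targets had intervals below 1, where 27.6% of all genes did. In PD0332991 to scrambled siRNA, where GLUL was 1.33-fold, 4 had intervals below 1 (31.6%) and 5 above 1 (31.2%). In CDK4/6 KD to scrambled siRNA 6 of 13 had intervals below 1 (31.8%) and 6 above 1 (30.1%). In CDK4/6 KD to DMSO 11 of 14 were below 1 (30.4%) and 1 above (29.0%). Between the controls 9 of 13 were below 1 in scrambled siRNA to DMSO (27.9%) and 1 above (28.4%), so that low values were not particular to PD0332991.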

How the data were processed

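RNA of HepG2 cells was sequenced by the authors with QuantSeq 3′ mRNA libraries, 1 library for each of 4 conditions, taken from the labels. What the authors deposited are counts of reads, not normalized, listed by gene symbol. Per the submitters' processing notes Bowtie2, edgeR and hg19 were used, and the counter, annotation and strand setting are not given in the sources used here. Each table held 25737 entries, and counts of 286 repeated symbols were summed. TMM factors were computed over the 4 libraries with edgeR 4.0.16 in R 4.3.3. To each count 0.5 reads were added in proportion to library size before fold changes were taken. A gene entered a comparison with 10 reads or more in 1 of its libraries, and was counted as higher or lower from 2-fold. Where both libraries had 3 reads or fewer no fold change was taken. Clopper-Pearson and Poisson intervals (95%) came from scipy 1.17.1. With 1 library per condition the quasi-likelihood test of edgeR could not be run. The computation was tested on simulated data.

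The 8 genes and all lists were chosen with earlier results of these data known. Named were the 8 genes, CDK4 and CDK6, from each partner list up to 4 genes at least 2-fold different with the interval on the same side of 1, ranked by the interval end nearest to 1, and the 2 nearest profiles per member. Some genes that this rule names are not reported here. ARG2, OTC, NAGS, RHBG, HGD, TDO2, AXIN2, SFN, KRT10, KRT5, COL1A1 and the markers at 0 reads were named after their values were seen. Alternatives were DESeq2 1.42.0 size factors, unadjusted totals, limma 3.58.1 quantile normalization, 5 added reads, filters of 50 reads or none, 1.5-fold as the threshold, whole intervals past 2-fold, only the entry with most reads of each repeated symbol and the control of the other arm. The mean of both controls and the E-box search were added after the data were seen. Positions come from GENCODE 29 (GRCh38) and promoters from RefSeq (GRCh38.p14), matched by symbol.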

Additional observations from a re-analysis of the deposited data

Results flagged for a closer look

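No member was at least 2-fold different in 1 arm with the opposite direction in the other, but 4 partner genes had intervals on opposite sides of 1 in CDK4/6 KD to scrambled siRNA and in PD0332991 to DMSO, with 1 of the values past 2-fold. AUH, of leucine breakdown, was 2.28-fold in CDK4/6 KD and 0.533 times after PD0332991. GSTZ1, of tyrosine breakdown, was 0.549 times and 2.27-fold. OAT, of ornithine breakdown, was 2.32-fold and 0.731 times. SP5, a Wnt target, was 1.47-fold and 0.495 times. All 4 also differed between scrambled siRNA and DMSO, at 0.457 for AUH, 1.69 for GSTZ1, 0.422 for OAT and 0.494 for SP5. With the controls exchanged none kept intervals on opposite sides of 1, at 1.04 and 1.17 for AUH, 0.93 and 1.34 for GSTZ1, 0.977 and 1.73 for OAT and 0.728 and 1.0 for SP5. With 1 library per condition, whether the arms differ was not tested.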

How the results depend on the processing

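No paired analysis was possible because each condition had 1 library. Against the control of the other arm, CPS1 turned to 0.843 and FAH to 1.04 in CDK4/6 KD, and the median of Wnt targets to 0.00241 for PD0332991. For PD0332991 that control also moved CPS1 from 0.983 to 1.69, HPD from 1.02 to 0.823 and FAH from 1.1 to 0.883. ASS1 ran from 2.08 (other control) to 3.53 (total counts alone) in CDK4/6 KD and from 1.8 (DESeq2 size factors) to 2.89 (other control) after PD0332991. Against the mean of both controls ASS1 was 2.55-fold in CDK4/6 KD and 2.24-fold after PD0332991.

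Members at least 2-fold higher in CDK4/6 KD fell from 2 to 1 under quantile normalization, a pseudocount of 5 reads, a filter of 50 reads and whole intervals past 2-fold. After PD0332991 they went from 0 to 1 with the control of the other arm, the mean of both controls and a threshold of 1.5-fold, and between controls 2 were lower at 1.5-fold. The median of the members in CDK4/6 KD was 0.358 without the filter.

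Partner genes higher in CDK4/6 KD (12) numbered 5 with the other control, 7 with a filter of 50 reads, 7 with the mean of controls, 27 at 1.5-fold and 5 by whole intervals. Those lower (1) numbered 3, 0, 2, 9 and 0 in that order, and 2 without the filter. After PD0332991 those higher (11) numbered 21 at 1.5-fold and 3 by whole intervals, and those lower (2) numbered 1 with a filter of 50 reads, 1 with the mean of controls, 10 at 1.5-fold and 0 by whole intervals. Between controls those higher (1) numbered 4 without the filter, 2 under quantile normalization, 8 at 1.5-fold and 0 by whole intervals, and those lower (8) numbered 4 with a filter of 50 reads, 19 at 1.5-fold and 1 by whole intervals. Over all genes, the 1254 higher in CDK4/6 KD numbered 454 to 2998 and the 1034 lower 437 to 2357, the 1026 higher after PD0332991 235 to 2833 and the 936 lower 449 to 2023, and between controls the 706 higher 165 to 1910 and the 881 lower 265 to 2370, by filter and threshold. Total counts alone moved the median log2 fold change of all genes in CDK4/6 KD to 0.1. Fewer genes tested or a stricter threshold lower such counts by construction, and the cause of the other changes was not tested. Depth limits ARG1, OTC and TAT, and the single libraries leave the spread between cultures unknown.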
